A study of Mus musculus with 10 samples.

Results

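The genes described here encode the subunits of oxidative phosphorylation, measured by RNA sequencing in tumors of B16F10, a mouse melanoma line. They were chosen by symbol alone: the Nduf subunit genes, Sdha to Sdhd, the Uqcr genes and Cyc1, the Cox4 to Cox8 genes, the Atp5 genes, and the mitochondrial Nd, Co, Cytb and Atp genes. Of 104 matching genes, 102 had a mean of at least 1 TPM (transcripts per 1000000 of the library, a level corrected for gene length) over the tumors and are the members. They stand among 14556 genes tested and 27919 genes in the table. Just inside the minimum lay Cox6b2 at 1.07 TPM and Cox5b-ps at 1.28 TPM, and just outside it the pseudogenes Atp5pb-ps at 0.414 TPM and Atp5l2-ps at 0.319 TPM. The members comprised 89 nuclear genes (80 called common below, 6 tissue-restricted isoforms and 3 pseudogenes) and 13 genes of the mitochondrial DNA. Common means every nuclear member that is neither a pseudogene by its symbol nor one of the restricted isoforms. The class thus takes in Ndufb4b and Ndufb4c, copies of Ndufb4.

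There were 4 tumors labelled as overexpressing Ly86 and 3 labelled as carrying the vector. All mice of both groups had been treated in 4 rounds with antibodies to both PD-1 and CTLA4, so no tumor without checkpoint blockade was compared. The sources used here give neither the promoter of the construct, nor whether each line was a clone, nor the strain, sex or age of the mice. Ly86 tumor 1, vector tumor 1 and vector tumor 2 were each sequenced as 2 pieces, so that 10 libraries gave 7 tumors. For levels and differences the pieces were averaged on the log2 scale. Mean TPM, marker sums, shares and ratios of a tumor instead used the mean TPM of its pieces, which gives the higher piece more weight. The labels number the tumors without stating that each grew in a separate mouse. The p-values therefore speak only of the spread among these tumors, which may in part be technical. Levels are log2(TPM + 1), differences are Ly86 minus vector on that scale, and adjusted p-values come from limma with Benjamini-Hochberg adjustment over all tested genes, with a threshold of 0.05.

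The libraries were checked first. Ly86, which encodes the secreted protein MD-1, averaged 5.98 ± 0.21 (SD, n = 4) in the tumors labelled Ly86 and 4.29 ± 0.99 (SD, n = 3) in those labelled vector. Its difference of 1.69 (SE 0.40) had a limma adjusted p of 0.437, although no vector tumor reached a Ly86 tumor. The first piece of vector tumor 2 held 80.9 TPM of Ly86, inside the 49.1 to 81.9 TPM of the Ly86 libraries, while the other vector libraries held 6.24 to 30.3 TPM. All 10 melanocyte markers were expressed in every library, with summed levels of 14603 to 21447 TPM in Ly86 tumors and 15353 to 18482 TPM in vector tumors. The first piece of vector tumor 2 stood apart here too, with 10427 TPM of melanocyte markers, 5159 TPM of macrophage markers and 4581 TPM of fibroblast markers, against 20278, 372 and 92.6 TPM in the second piece. Across tumors, macrophage marker sums ran from 2145 to 2761 TPM with Ly86 and from 491 to 2765 TPM with vector. Fibroblast marker sums ran from 926 to 2617 TPM and from 259 to 2337 TPM. All 12 macrophage, 8 fibroblast and 8 T cell markers had differences above 0, with medians of 1.24, 1.74 and 1.18. T cell sums were 45.8 to 97.2 TPM against 11.2 to 91.1 TPM. Macrophage sums of the vector libraries were 373, 610, 5159, 372 and 1585 TPM in order of tumor and piece. Ly86 stood there at 6.24, 9.88, 80.9, 7.85 and 30.3 TPM. Macrophage sums of the Ly86 libraries were 1831, 3692, 2550, 2145 and 2649 TPM, beside 49.1, 81.9, 53.2, 58.9 and 75.4 TPM of Ly86. The part of macrophages in the Ly86 levels was not tested. How the construct's own transcripts entered these levels is not stated in these sources.

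Oxidative phosphorylation takes electrons from NADH and succinate through complexes I and II, passes them through complexes III and IV to oxygen, and uses the proton gradient so built to make ATP at complex V. Complexes I, III, IV and V join subunits from the mitochondrial DNA, core subunits among them, with many more from nuclear genes, whereas complex II is nuclear alone. The mitochondrial genes are transcribed as long polycistronic RNAs that are cut into single messages, and melanoma cells run this pathway alongside glycolysis.

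A short stretch of the mitochondrial DNA is shown because it bears on how reads of both mitochondrial complex V genes can be counted. The reading frames of mt-Atp8 (204 bases) and mt-Atp6 (681 bases) overlap by 43 bases on the plus strand at chrM:7927-7969 of GRCm38, and the genes are carried on one message. Capitals mark the start codon of mt-Atp6 and the stop codon of mt-Atp8:
mt-Atp8 and mt-Atp6 overlap: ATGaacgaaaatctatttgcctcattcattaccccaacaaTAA
The frames of mt-Nd4l (297 bases) and mt-Nd4 (1378 bases) overlap in the same way by 7 bases. The genome build was mm39, per the submitters' processing notes, and how reads in these stretches were divided is not stated in these sources.

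Promoters of members were searched for the letters GCATGCGC, the core of the site of NRF1, and CCGGAAGT, the core of the site of ETS factors such as GABPA, on both strands. Both factors are known regulators of respiratory genes. In the RefSeq table for GRCm38.p6, which gives 300 bases per gene (250 before the start and 50 after), 69 of the 89 nuclear members had an entry. GCATGCGC occurred in 10 of these 69 (14.5%), in 5.75% of the 10672 tested genes with an entry and in 3.05% of all 27025 promoters. CCGGAAGT occurred in 5 (7.25%), against 8.88% and 4.31%. Promoters of 2 complex III genes are shown, the only member promoter with both cores (Uqcr11, minus strand, chr10:80406772-80407071) and that of Uqcrc1 (plus strand, chr9:108936398-108936697), the common nuclear member with the smallest spread between tumors of a group, with the matched letters in capitals. In Uqcrc1, matches on both strands overlap, which gives the longer capital run.
Uqcr11: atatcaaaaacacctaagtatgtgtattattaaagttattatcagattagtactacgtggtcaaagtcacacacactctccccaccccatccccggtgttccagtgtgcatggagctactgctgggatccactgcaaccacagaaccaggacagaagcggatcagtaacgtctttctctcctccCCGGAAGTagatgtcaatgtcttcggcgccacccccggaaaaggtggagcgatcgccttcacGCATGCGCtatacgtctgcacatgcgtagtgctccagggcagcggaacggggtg
Uqcrc1: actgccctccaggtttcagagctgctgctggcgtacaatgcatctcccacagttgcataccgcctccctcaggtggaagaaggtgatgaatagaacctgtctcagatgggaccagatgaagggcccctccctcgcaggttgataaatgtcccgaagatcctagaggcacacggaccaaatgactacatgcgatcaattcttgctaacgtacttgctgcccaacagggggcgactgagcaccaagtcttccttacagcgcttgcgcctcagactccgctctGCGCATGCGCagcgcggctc
A match describes these letters and does not show that a factor binds.

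The first comparison asked whether the subunits differed between Ly86 and vector tumors. No member passed the threshold, nor did any of the 14556 genes (0%). At an unadjusted p under 0.05, 5 members were higher and 0 lower, where 5.78% of all genes tested were higher and 4.97% lower. The members higher at that level were Ndufb4c and Ndufa12-ps, which are copies of other members, the restricted isoforms Ndufa4l2 and Cox4i2, and mt-Co2. This count was 3 without Ly86 tumor 3, Ly86 tumor 4, vector tumor 1 or vector tumor 3, each left out alone, and Ndufb4c, Ndufa4l2 and Ndufa12-ps made it up in all 4 cases. Levels on the log2 scale did not overlap between the groups for 3 members that were higher with Ly86 (4.71% of all genes). The same was true of 1 that was lower, mt-Atp8 (5.75% of all genes). A two-sided exact permutation test over the 35 assignments of the tumors, which cannot give a p below 0.0286, gave 0.0286 for Ndufb4c, 0.0571 for Ndufa4l2 and for Ndufa12-ps, and 0.0857 for mt-Atp8. With limma's array weights 5 members passed the adjusted threshold, as did 12.6% of all genes. In that fit vector tumor 3 received a weight of 22.85 and every other tumor less than 1, and the weights did not reach convergence.

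Most subunits lay close together in both groups. The 80 common nuclear genes had a median difference of 0.012, with 47 above 0 and 33 below. Their differences ran from -0.45 (Ndufb4b) to 0.56 (Ndufb4c), both ends set by copies of Ndufb4. For 76 of the 80 (95%) the difference was within 0.25 of 0 in either direction, as it was for 65.1% of all genes tested. The genes tested reach down to a mean of 1 TPM, and no set matched for level was compared. In the lists of other pathway genes described below, this share ran from 70% (biogenesis regulators) to 100% (tricarboxylic acid cycle), with 87.5% for the mitochondrial ribosome. The median over all genes tested was -0.037. The 13 mitochondrial genes spread more widely, from -0.56 to 0.69 with a median of -0.10, with 5 above 0 and 8 below.

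**Figure D1:**
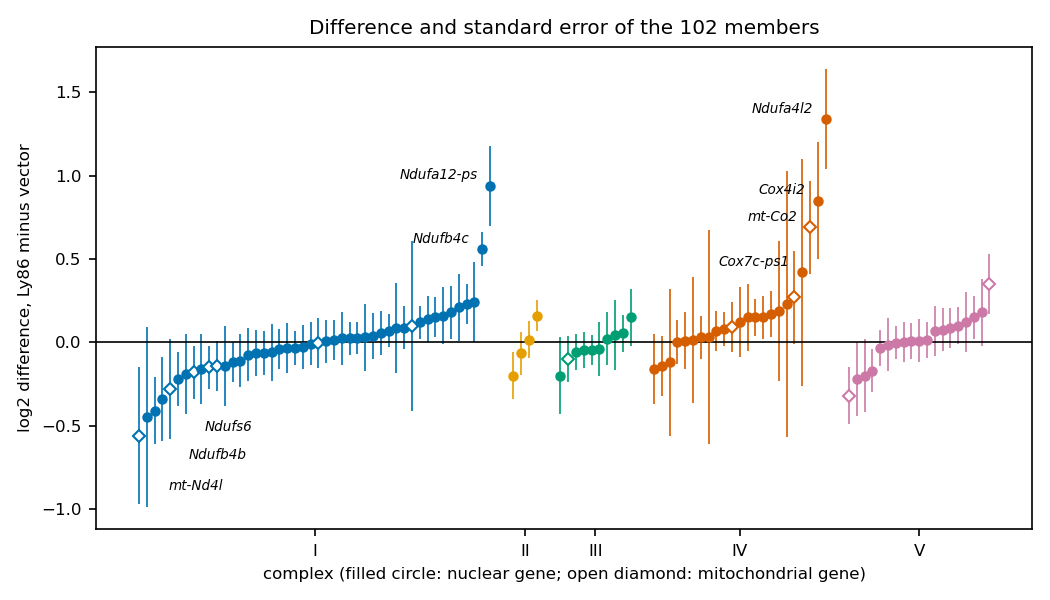
Each point is the log2 difference (Ly86 minus vector) of a member with its standard error, ordered within its complex; filled circles are nuclear genes and open diamonds mitochondrial genes. Most nuclear members lie near 0, and the labelled genes are those more than 0.4 from it, from -0.56 (mt-Nd4l) to 1.34 (Ndufa4l2).

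Per tumor, the common nuclear subunits had mean levels of 8.09, 8.37, 8.30 and 8.15 in Ly86 tumors 1 to 4 and 8.41, 8.06 and 8.19 in vector tumors 1 to 3. The group means were 8.23 ± 0.13 (SD, n = 4) and 8.22 ± 0.18 (SD, n = 3), and both the highest and the lowest tumor carried the vector. The mitochondrial genes read 11.33, 11.58, 11.32 and 11.85 with Ly86 and 11.52, 11.61 and 11.48 with vector, or 11.52 ± 0.25 (SD, n = 4) and 11.54 ± 0.067 (SD, n = 3). The vector tumors lay inside the range of the Ly86 tumors.

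Nuclear and mitochondrial subunits were then set against each other as shares of all transcripts. Mitochondrial subunits took 4.87, 5.69, 5.03 and 6.51% of TPM in Ly86 tumors 1 to 4 and 5.34, 5.68 and 5.09% in vector tumors 1 to 3. Nuclear members took 2.94, 3.58, 3.57 and 3.16% against 3.76, 2.91 and 3.15%. Neither share separated the groups. The ratio of mitochondrial to nuclear TPM was therefore 1.66, 1.59, 1.41 and 2.06 with Ly86 and 1.42, 1.95 and 1.62 with vector, with means of 1.68 ± 0.274 (SD, n = 4) and 1.66 ± 0.268 (SD, n = 3). Tumors ranked differently on the shares: Ly86 tumor 4 was highest for mitochondrial transcripts, with 13 of 13 genes above their mean over tumors, and had 34 of 80 common nuclear genes above theirs. Of all genes tested, 47.5% were above theirs in that tumor. In bulk tumors, fewer cells of a type and less RNA per cell cannot be told apart.

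**Figure D2:**
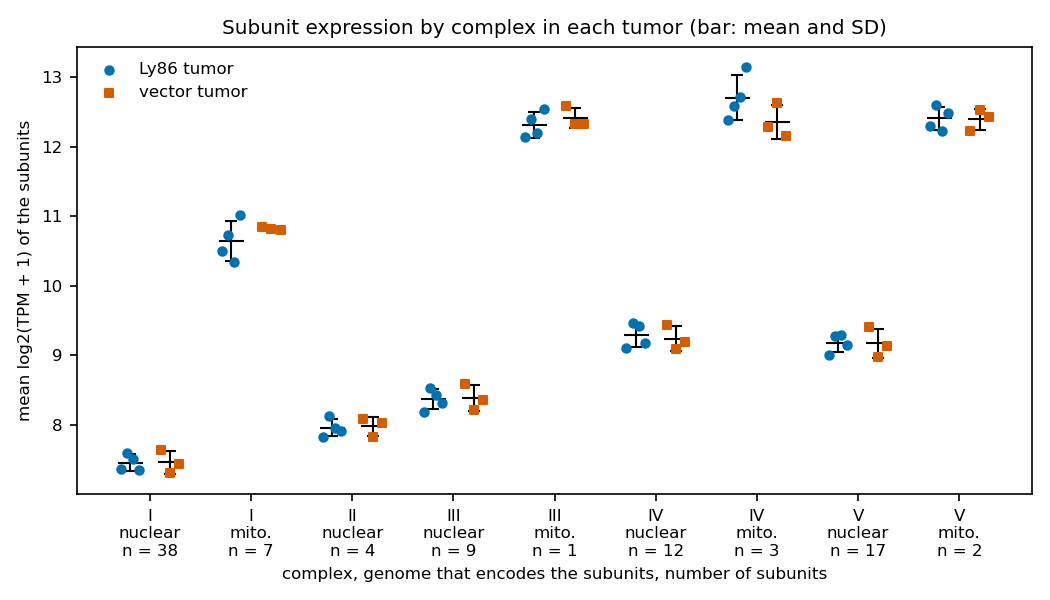
Mean log2(TPM + 1) of the subunits of each complex, nuclear and mitochondrial apart, in each Ly86 (circle) and vector (square) tumor, with the group mean and SD as bars. The groups overlap in every set, and mitochondrial subunits stand above the nuclear ones of the same complex.

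Complex I, the NADH dehydrogenase, is the largest of the set with 38 common nuclear members, Ndufb4b and Ndufb4c among them, and 7 mitochondrial ones. Its nuclear subunits averaged 7.36, 7.60, 7.51 and 7.35 in the Ly86 tumors and 7.64, 7.31 and 7.43 in the vector tumors, with 20 differences above 0, 18 below and a median of 0.008. Its mitochondrial subunits averaged 10.50, 10.73, 10.34 and 11.01 against 10.84, 10.81 and 10.80. In 6 of 7 the difference was below 0, with a median of -0.15, while the vector tumors sat inside the Ly86 range.

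Among the nuclear complex I genes, Ndufa3 and Ndufv3, accessory subunits of the membrane arm and of the NADH-binding module, were the most abundant, with mean levels of 439 and 416 TPM. Ndufa3 differed by 0.21 (SE 0.20) and Ndufv3 by -0.029 (SE 0.13). Ndufs6, an accessory subunit of the NADH-binding module, read 7.28, 7.47, 7.06 and 6.81 with Ly86 and 7.95, 7.29 and 7.43 with vector. Its difference was -0.41 (SE 0.20, limma adjusted p = 0.507), vector tumor 1 was the highest and the groups overlapped. Without vector tumor 1 the difference was -0.21. Ndufa8 differed by -0.22 (SE 0.16, limma adjusted p = 0.646), with Ly86 tumor 4 lowest at 6.94, and by -0.091 without that tumor.

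Ndufb4c had the smallest unadjusted p of the members. It read 7.49, 7.53, 7.57 and 7.63 in the Ly86 tumors and 6.81, 7.07 and 7.10 in the vector tumors, a difference of 0.56 (SE 0.10, limma adjusted p = 0.394). Every Ly86 tumor was above every vector tumor. Ndufb4c is a copy of the accessory subunit gene Ndufb4, and all 341 stretches of 50 bases in its GENCODE transcript (100%) occur in that of Ndufb4, so reads of the copy cannot be told from reads of the parent. RSEM divides such reads by estimate, and Ndufb4c averaged 163 TPM against 95.1 TPM for Ndufb4. Ndufb4 itself differed by -0.11 (SE 0.16). Summing both before the log gave 8.09, 8.22, 8.09 and 8.14 with Ly86 and 7.86, 7.78 and 7.86 with vector. The difference was 0.30 and the groups did not overlap. Because TPM is corrected for length, this sum can also move with how reads were divided between copy and parent, which was not tested. The difference of Ndufb4c was 0.84 from the first pieces of divided tumors alone and 0.29 from the second pieces alone. In the first piece of Ly86 tumor 1 it stood at 234 TPM and in the second at 136 TPM.

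Ndufa12-ps, a pseudogene of the accessory subunit Ndufa12, shared 78.8% of its 50-base stretches with Ndufa12. It read 3.40, 3.89, 4.18 and 4.19 with Ly86 and 3.24, 3.06 and 2.61 with vector, a difference of 0.94 (SE 0.24, limma adjusted p = 0.437) with no overlap. Its mean was 11.3 TPM, beside 290 TPM for Ndufa12, which differed by 0.14 (SE 0.14). Summed with Ndufa12 the difference was 0.16 and the groups overlapped, and this sum has the limit given for Ndufb4c. Another copy, Ndufb4b, was at 0 in Ly86 tumor 3 and at 1.57 to 4.75 TPM in the other libraries, with a difference of -0.45 (SE 0.54). The pseudogenes Cox5b-ps and Cox7c-ps1 shared 61.9% and 55.7% of their stretches with Cox5b and Cox7c, and differed by 0.014 (SE 0.38) and 0.42 (SE 0.68).

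Complex II, succinate dehydrogenase, has 4 subunits, all nuclear. Their mean levels were 7.83, 8.12, 7.96 and 7.91 with Ly86 and 8.09, 7.83 and 8.02 with vector. Sdha, the flavoprotein that oxidises succinate, read 7.33, 7.67, 7.37 and 7.46 against 7.90, 7.41 and 7.66, a difference of -0.20 (SE 0.14, limma adjusted p = 0.628), and of -0.079 without vector tumor 1. Sdhb, the iron-sulfur subunit, and Sdhd, a membrane anchor, were the most abundant at 395 and 240 TPM and differed by 0.016 (SE 0.11) and -0.067 (SE 0.13). Sdhc, the other anchor, differed by 0.16 (SE 0.091). All 4 differences were smaller than 0.25 in size.

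Complex III, which passes electrons from ubiquinol to cytochrome c, has 9 common nuclear members and mt-Cytb. The nuclear subunits averaged 8.19, 8.53, 8.43 and 8.32 with Ly86 and 8.58, 8.21 and 8.36 with vector, with 4 differences above 0 and 5 below. Uqcr10 and Uqcrq, small accessory subunits, led in abundance at 708 and 639 TPM and differed by 0.022 (SE 0.16) and -0.04 (SE 0.16). Uqcrc1, a core structural subunit whose promoter is shown above, had the smallest spread within groups of the 80 common nuclear genes, with a pooled SD of 0.086 and levels of 7.92, 7.96, 7.95 and 7.88 with Ly86 and 8.01, 7.83 and 8.08 with vector. Uqcr11, whose promoter is also shown, had an SD of 0.36 and ranged from 7.82 in Ly86 tumor 4 to 8.89 in Ly86 tumor 2. The mitochondrial mt-Cytb, cytochrome b, read 12.14, 12.39, 12.19 and 12.54 against 12.58, 12.33 and 12.33, a difference of -0.10 (SE 0.14), and of -0.0099 without vector tumor 1.

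Complex IV, cytochrome c oxidase, hands electrons to oxygen and carries the proteins for which restricted isoforms are known. Its 12 common nuclear subunits, Ndufa4 among them, averaged 9.11, 9.46, 9.42 and 9.18 with Ly86 and 9.44, 9.09 and 9.19 with vector. Differences were above 0 for 10 of 12, as for 43.8% of all genes, with a median of 0.073, and ran from -0.16 to 0.17. The tumors overlapped fully. Cox4i1, a regulatory subunit, and Ndufa4 were the most abundant at 1092 and 908 TPM and differed by 0.03 (SE 0.13) and 0.0099 (SE 0.17).

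The 3 mitochondrial subunits of complex IV form its catalytic core, and all 3 differences were above 0. Together they averaged 12.38, 12.59, 12.71 and 13.14 with Ly86 and 12.28, 12.63 and 12.15 with vector, or 12.71 ± 0.32 (SD, n = 4) and 12.35 ± 0.25 (SD, n = 3). Vector tumor 2 lay above Ly86 tumors 1 and 2. For mt-Co2, which takes up electrons from cytochrome c, the levels were 12.53, 12.58, 13.47 and 13.38 against 12.33, 12.57 and 11.98. That is a difference of 0.69 (SE 0.28, limma adjusted p = 0.453), with Ly86 tumors 3 and 4 high and Ly86 tumor 1 just below vector tumor 2. In TPM, Ly86 tumors 3 and 4 held 11333 and 10690 and the other 8 libraries 4052 to 7053. The difference was 0.53 without Ly86 tumor 3 and 0.56 without Ly86 tumor 4. By contrast mt-Co1, which holds the oxygen-binding site, differed by 0.094 (SE 0.15) and mt-Co3 by 0.27 (SE 0.28), the latter with Ly86 tumor 4 highest at 12.41. Without that tumor the difference of mt-Co3 was 0.017, and that of mt-Co1 was 0.026 without vector tumor 1.

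**Figure D3:**
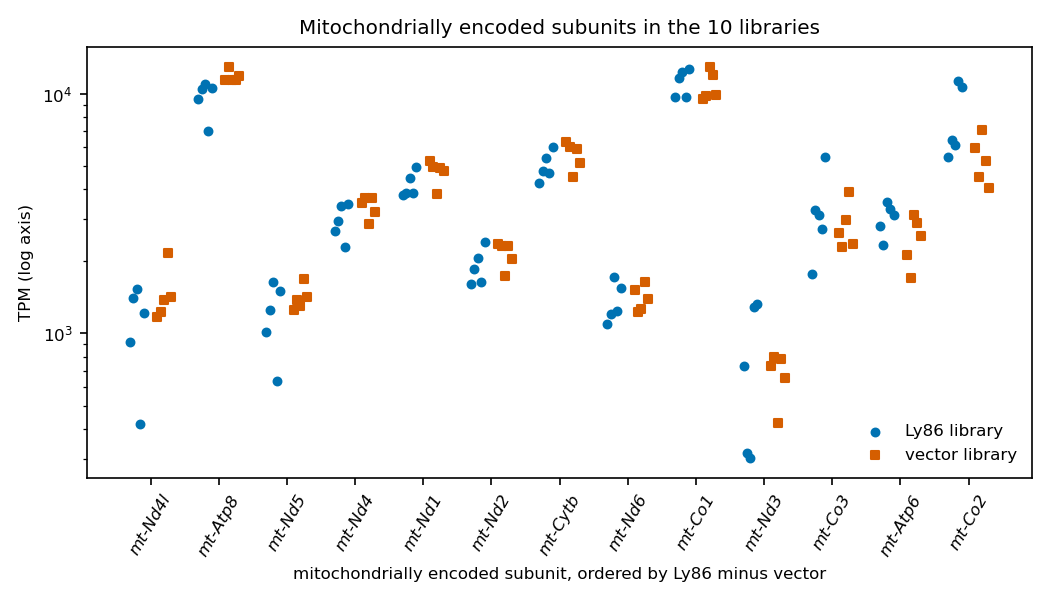
TPM (log axis) of the 13 mitochondrially encoded subunits in each Ly86 (circle) and vector (square) library, ordered by the difference between groups. For mt-Co2 the libraries of Ly86 tumors 3 and 4 stand above the other 8, and for mt-Nd4l and mt-Nd5 the library of Ly86 tumor 3 is the lowest at 418 and 636 TPM.

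Ratios between mitochondrial genes varied from tumor to tumor. The shortest of these genes were mt-Atp8, mt-Nd4l and mt-Nd3, at 204, 297 and 348 bases. TPM is corrected for length, and the part of that correction in their levels was not tested. The ratio of mt-Co2 to mt-Co1 was 0.555, 0.495, 1.17 and 0.848 with Ly86 and 0.542, 0.495 and 0.411 with vector. For mt-Nd4l, whose frame runs into that of mt-Nd4, the ratio to mt-Nd4 was 0.181 in Ly86 tumor 3 and 0.334 to 0.546 in the other 6 tumors. Ly86 tumor 3 thus held the lowest mt-Nd4l (8.71, with 10.16 to 10.76 elsewhere) and the lowest mt-Nd5 (9.32, with 10.14 to 10.68 elsewhere). Both encode membrane subunits of the proton-pumping arm of complex I. The group differences were -0.56 (SE 0.41) for mt-Nd4l and -0.28 (SE 0.30) for mt-Nd5, within the spread. Without Ly86 tumor 3 they were -0.16 and 0.0041, the latter with the opposite sign.

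The remaining mitochondrial complex I genes overlapped between groups. Levels of mt-Nd3 were 8.91, 8.24, 10.34 and 10.38 with Ly86 and 9.58, 9.17 and 9.35 with vector, with an SD of 1.06 in Ly86 and 0.21 in vector tumors, so the highest and the lowest tumors were all Ly86. Its difference was 0.10 (SE 0.51), and -0.19 and -0.20 without Ly86 tumor 3 or 4. The differences of mt-Nd1, mt-Nd2 and mt-Nd4 were -0.15 (SE 0.13), -0.14 (SE 0.15) and -0.18 (SE 0.16). For mt-Nd6, encoded on the other strand from mt-Nd5, it was -0.0026 (SE 0.15), and the strand setting of the counting is not stated in these sources.

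Complex V, the ATP synthase, has 17 common nuclear members, which averaged 9.40, 8.98 and 9.13 in vector tumors 1 to 3 and 9.27, 9.29 and 9.15 in Ly86 tumors 2 to 4, with Ly86 tumor 1 between vector tumors 2 and 3. The groups overlapped. Of these, 11 differences were above 0 and 6 below, from -0.22 to 0.18. Atp5b, the catalytic beta subunit, was the most abundant nuclear member with 1992 TPM and read 10.88, 11.08, 10.75 and 10.80 against 11.25, 10.93 and 10.96. It differed by -0.17 (SE 0.13, limma adjusted p = 0.651), and by -0.069 without vector tumor 1. Atp5mpl, a small membrane-bound subunit, followed with 1625 TPM and differed by 0.12 (SE 0.18).

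The mitochondrial pair of complex V, whose overlap is printed above, pointed in opposite directions. For mt-Atp8, a subunit of the stator, the levels were 13.28, 13.42, 12.76 and 13.37 with Ly86 and 13.57, 13.48 and 13.54 with vector. Its difference was -0.32 (SE 0.17, limma adjusted p = 0.539). Each Ly86 tumor lay below each vector tumor, and Ly86 tumor 3 was the lowest. Without that tumor the difference was -0.17. For mt-Atp6, which lines the proton channel, the levels were 11.32, 11.79, 11.69 and 11.61 against 10.89, 11.56 and 11.31, a difference of 0.35 (SE 0.18, limma adjusted p = 0.518), and of 0.17 without vector tumor 1. The ratio of mt-Atp8 to mt-Atp6 was 3.89, 3.09, 2.11 and 3.39 with Ly86 and 6.38, 3.79 and 4.69 with vector. The means were 3.12 ± 0.75 (SD, n = 4) and 4.95 ± 1.31 (SD, n = 3), and Ly86 tumor 1 overlapped vector tumor 2. Both genes lie on a single message, so this ratio also moves with how reads near the shared bases are divided between them, which was not tested.

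The tissue-restricted isoforms were all scarce beside their common partners. Ndufa4l2, a relative of Ndufa4 known to be induced in low oxygen and to be expressed in pericytes, read 4.73, 4.15, 5.32 and 5.15 with Ly86 and 3.10, 3.84 and 3.55 with vector. The difference was 1.34 (SE 0.30, limma adjusted p = 0.437) and the groups did not overlap on the log2 scale. By library, the Ly86 tumors held 17.9 and 36.1 TPM (both pieces of tumor 1), 16.8, 38.9 and 34.5 TPM. The vector libraries held 6.33 and 9.04 TPM (tumor 1), 36.4 and 4.51 TPM (tumor 2) and 10.8 TPM. The first piece of vector tumor 2 thus reached the Ly86 level, as it did for Ly86 itself. From the first pieces of divided tumors alone the difference was 0.83 and from the second pieces alone 1.84. It was 1.80 when vector tumor 2 was represented by its second piece only. Ndufa4l2 stood at 3.48, 1.90, 3.81 and 3.74% of the Ndufa4 level with Ly86 and at 0.658, 2.81 and 1.26% with vector. On this share, with pieces averaged as TPM, vector tumor 2 lay above Ly86 tumor 2. The same holds for the mean TPM of its pieces. The separation of Ndufa4l2 thus rests on averaging pieces on the log2 scale.

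Cox4i2, the isoform of Cox4i1 known from lung, read 2.63, 2.13, 2.54 and 3.28 with Ly86 and 1.41, 2.45 and 1.52 with vector. Its difference was 0.85 (SE 0.35, limma adjusted p = 0.455), and vector tumor 2 lay above Ly86 tumor 2. By library it stood at 3.37 to 8.72 TPM with Ly86 and at 1.36 to 2.16 TPM in 4 vector libraries, with 8.43 TPM in the first piece of vector tumor 2. Without that piece the difference was 1.11. Pericyte and smooth muscle markers, of which 9 of 10 were tested, summed to 86.8, 51.6, 72.3 and 124 TPM with Ly86 and 59.3, 144 and 84.4 TPM with vector. Of the 9 differences 3 were above 0 and 6 below, and Cnn1 was at 0 in Ly86 tumor 4. In vector tumor 2 these markers summed to 238 TPM in the first piece and 50.8 TPM in the second, in the same direction as both isoforms. The part of pericytes, fibroblasts or macrophages in the isoform levels was not tested.

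**Figure D4:**
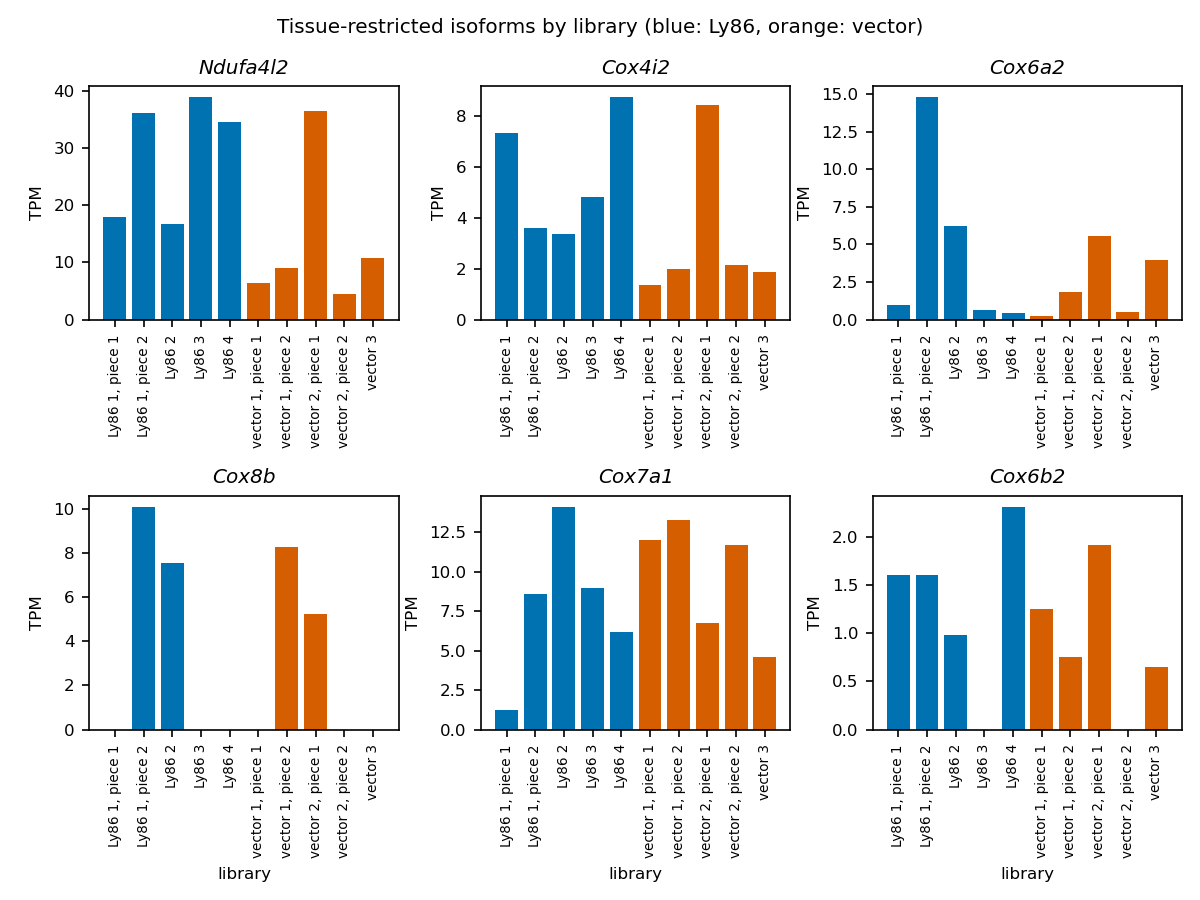
TPM of the 6 tissue-restricted isoforms in each library (bars from 0; blue Ly86, orange vector). Ndufa4l2 and Cox4i2 are high in the first piece of vector tumor 2 (36.4 and 8.43 TPM) and low in the other vector libraries, and Cox8b is above 0 in 4 libraries, 2 in each group.

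Cox6a2 and Cox8b, the heart and skeletal muscle partners of Cox6a1 and Cox8a, overlapped between the groups. Cox8b was at 10.1 TPM in the second piece of Ly86 tumor 1, 7.55 TPM in Ly86 tumor 2, 8.27 TPM in the second piece of vector tumor 1 and 5.22 TPM in the first piece of vector tumor 2, and at 0 in the other 6 libraries. Those 4 libraries had the highest sums of 13 skeletal muscle markers, 1536, 551, 371 and 439 TPM, while the other 6 ran from 4.95 TPM (Ly86 tumor 3) to 242 TPM (vector tumor 3). Cox6a2 was likewise highest in the second piece of Ly86 tumor 1 (14.8 TPM) and in Ly86 tumor 2 (6.21 TPM), and lowest in the first piece of vector tumor 1 (0.22 TPM). The muscle markers differed by a median of -0.81 with 1 of 13 above 0, and Myh2, Myh4 and Tnnc2 were at 0 in Ly86 tumors 3 and 4. Differences were 0.032 (SE 0.64) for Cox6a2 and 0.23 (SE 0.80) for Cox8b, against 0.067 (SE 0.12) for Cox6a1 and -0.14 (SE 0.18) for Cox8a. The part of muscle tissue in the isoform levels was not tested.

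Cox7a1, also a muscle isoform, did not share that order. It read 1.21 and 8.61 TPM in the pieces of Ly86 tumor 1, 14.1, 8.94 and 6.18 TPM in Ly86 tumors 2 to 4, and 4.62 to 13.3 TPM in the vector libraries. Its difference of -0.12 (SE 0.44) stood beside 0.15 (SE 0.13) for Cox7a2 and 0.079 (SE 0.10) for Cox7a2l. Cox6b2, known from testis, was at 0 to 2.31 TPM and differed by 0.19 (SE 0.42), while its partner Cox6b1, at 532 TPM, differed by 0.00025 (SE 0.13).

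Tumors of the same group differed from each other. Vector tumor 1 had 72 of 80 common nuclear genes above their mean over tumors and was the highest tumor for 28 of them, while vector tumor 2 had 6 of 80 above and was the lowest for 30. Among Ly86 tumors, 10 of 80 were above the mean in tumor 1, 69 in tumor 2, 61 in tumor 3 and 34 in tumor 4. Of all genes tested, 54.2 and 45.8% were above their mean in vector tumors 1 and 2. In Ly86 tumors 1 to 4 these shares were 62.8, 53.6, 33.1 and 47.5%. Vector tumor 1 was the highest tumor for 21.1% of all genes tested, and vector tumor 2 the lowest for 14.5%. In Ly86 tumor 4 the accessory subunit genes Ndufa1, Ndufb3, Uqcr11 and Ndufa13 stood at -0.70, -0.66, -0.61 and -0.58 from their means over tumors, while others, such as Ndufb1 (0.41) and Ndufc1 (0.20), stood above theirs. These genes were chosen after their values were seen.

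**Figure D5:**
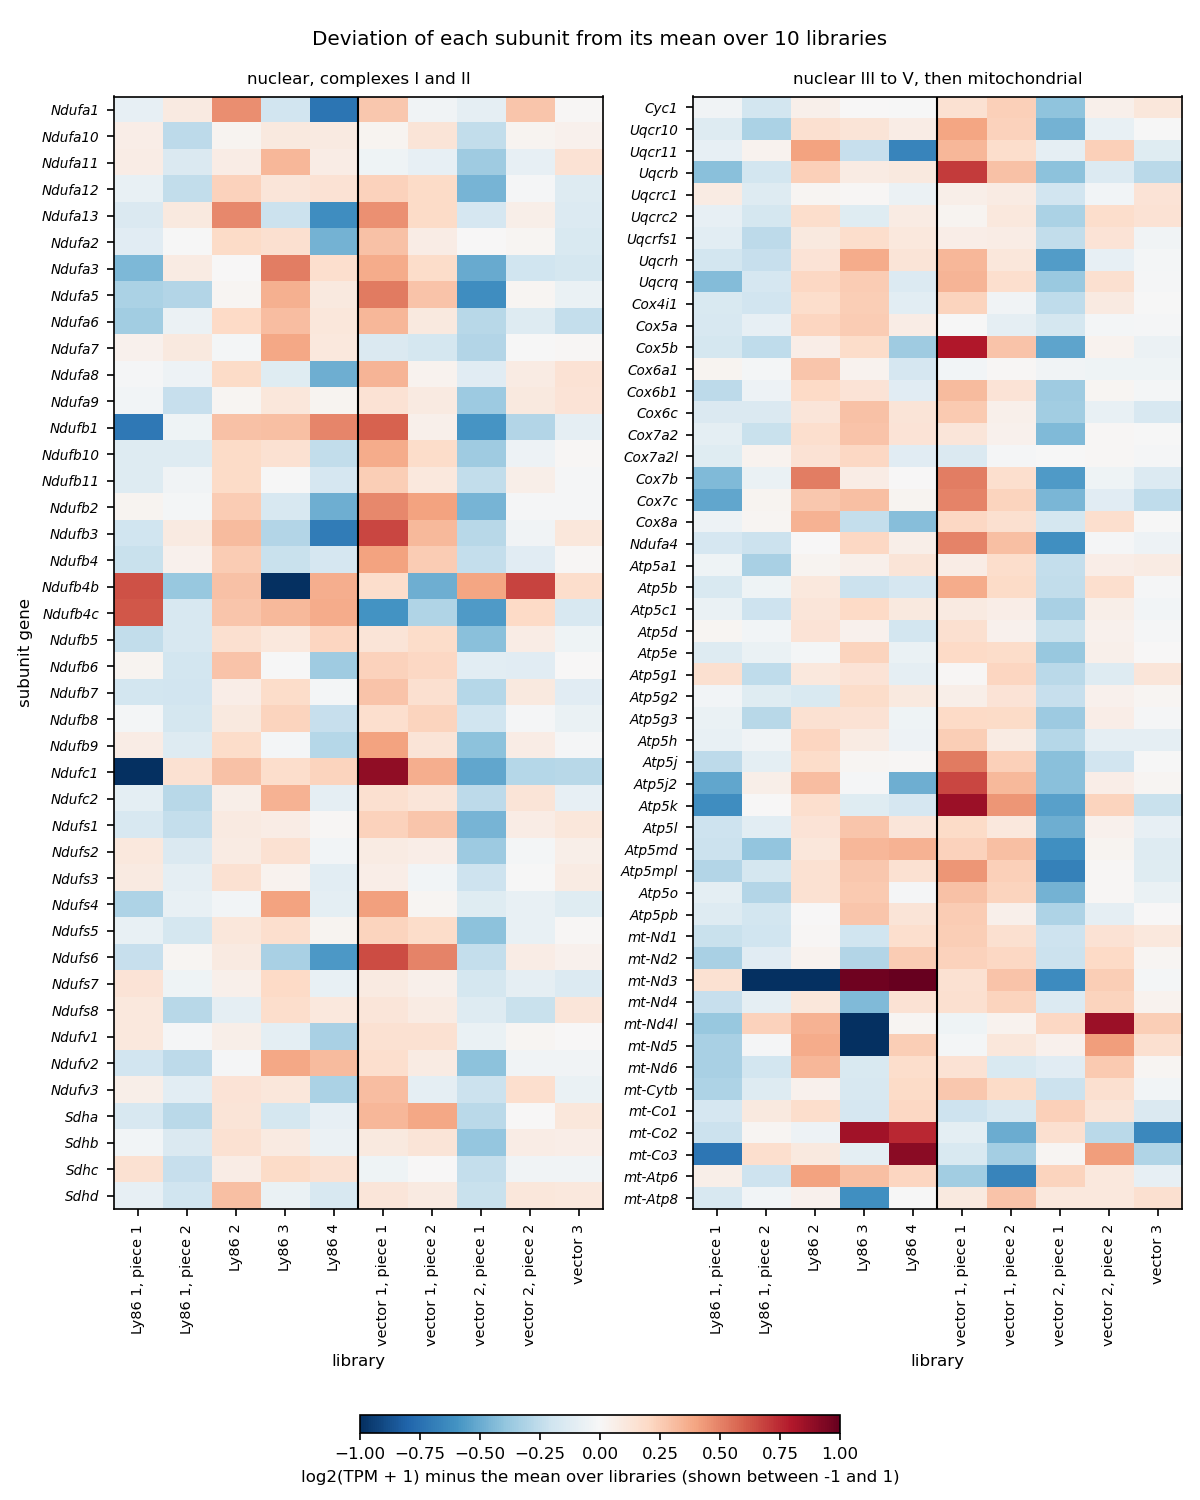
Deviation of each common nuclear and mitochondrial subunit from its mean log2(TPM + 1) over the 10 libraries (red above, blue below, colors limited to -1 and 1), with a line between Ly86 and vector libraries. The first piece of vector tumor 1 is red and the first piece of vector tumor 2 blue over most nuclear rows, while Ly86 tumor 4 mixes both.

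Pieces of a tumor differed too. In vector tumor 2, 77 of 80 common nuclear genes were lower in the first piece, with a median of -0.34 (first minus second), where the median of all genes was -0.0057. All 4 complex II, all 9 complex III and all 17 complex V common nuclear genes were lower there. The mitochondrial genes had a median of -0.37, with 10 of 13 lower. The first piece held 25252 TPM of nuclear members and the second 32723 TPM, and this first piece was the one with more macrophage and fibroblast and fewer melanocyte transcripts. The part of that mix in the subunit levels was not tested. In vector tumor 1 the median of the common nuclear genes was 0.093 with 61 of 80 higher in the first piece, where the median of all genes was -0.13 and 29.6% were higher. In Ly86 tumor 1 it was 0.05 with 48 of 80 higher, beside 0.0096 for all genes, while the mitochondrial genes had a median of -0.17 with 11 of 13 higher in the second piece.

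Genes that build or supply the complexes were described from lists outside the rule. None of them held a gene past the adjusted threshold, and 3 genes were lower at an unadjusted p under 0.05, a level that 4.97% of all genes tested reached in that direction. Of 46 assembly factors 20 differences were above 0 and 26 below, with a median of -0.03, and Ndufaf7, a methyltransferase for complex I assembly, differed by -0.30 (SE 0.12, limma adjusted p = 0.449). Of 26 genes that maintain and express mitochondrial DNA 9 were above 0, with a median of -0.012. They include Elac2, which trims the 3′ ends of mitochondrial tRNAs and so helps to cut out the messages (-0.28, SE 0.10, limma adjusted p = 0.441), and Tfam, which packages the mitochondrial DNA (-0.023, SE 0.13). Of 80 mitochondrial ribosome genes chosen by symbol, the pseudogenes Mrpl23-ps1 and Mrps36-ps2 among them, 19 were above 0 and 61 below. Their median was -0.088, and Mrps7 differed by -0.36 (SE 0.13, limma adjusted p = 0.449). Over all genes tested, 43.8% of differences were above 0.

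In the remaining lists no gene reached an unadjusted p of 0.05. The 16 genes of the tricarboxylic acid cycle, which supplies NADH and succinate, had a median of -0.054 with 3 above 0. The 14 electron carriers and subunits outside the rule had a median of -0.10, also with 3 above 0, and the 11 carriers and uncoupling genes 0.08 with 8 above. Among 10 biogenesis regulators the median was -0.049. Ppargc1a, a coactivator of respiratory genes, read 4.77, 6.19, 4.49 and 5.83 with Ly86 and 5.15, 5.40 and 5.32 with vector, a difference of 0.028 (SE 0.39). Of the other marker lists, 5 adipocyte markers had a median difference of 0.015, 7 endothelial markers -0.057 and 4 erythroid markers -0.75, with 0 of the latter above 0.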

How the data were processed

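The deposited table holds log2(TPM + 1) values for 27919 genes in 10 libraries. That scale was read from the values, since 2 raised to a value, minus 1, gave a multiple of 0.01 TPM for 99.9% of values, to within 0.0001 of a step. Per the submitters' processing notes, the authors used STAR 2.7.10b and RSEM 1.3.3 with mm39. TPM keeps no read depth, so no counting interval is given.

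Genes with a mean of at least 1 TPM over tumors were tested with limma 3.58.1 in R 4.3.3 (lmFit, eBayes with trend), 4 Ly86 against 3 vector tumors. The fit was tested on simulated data. Members, lists and rules were chosen with earlier results of these data known, so lists have counts and medians and no p. Named genes were any past the threshold (there was none), the mitochondrial members, the 5 smallest p in each direction, the 2 most abundant nuclear genes per complex, and restricted isoforms with partners; genes named outside this rule were chosen after their values were seen. The members without a promoter entry in the table used here, and member proteins, were not analysed here. Figures used matplotlib 3.10.9. Alternatives are given in the closing section.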

Additional observations from a re-analysis of the deposited data

How the results depend on the processing

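Over 20 alternatives, members past the adjusted threshold numbered 0 except with limma array weights, where 5 passed. Members higher at an unadjusted p under 0.05, 5 in all, numbered 3 with no filter on low values (3.28% of all genes were higher there), 3 with the first piece only of each divided tumor (0.866%) and 10 with array weights (12.4%). Leaving out each tumor in turn gave 3 to 6, where 3.34 to 8.55% of all genes were higher. Members lower at that level, 0 in the main comparison, numbered 1 without the first piece of vector tumor 2 (Ndufs6; 9.47% of all genes were lower) and 4 with array weights (21.2%), and 0 to 2 on leaving out each tumor (1.72 to 9.23%). The median difference of nuclear members ran from -0.059 to 0.10 and that of mitochondrial members from -0.20 to -0.00019. Over the 40 named genes, 73 of 783 values changed sign, in 17 genes, and no gene had passed the adjusted threshold in the main comparison. Ndufb4c, Ndufa4l2, Ndufa12-ps, Cox4i2 and mt-Co2 kept their sign under each alternative run.

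Tumors of the same number did not deviate together, with correlations of -0.172, -0.11 and -0.308. For tumors of different numbers the correlations ran from -0.218 to 0.354. So few values cannot decide whether the number pairs the tumors, which the labels do not state. With the tumor number as a replicate block, 4 members were higher and 0 lower (2.48% and 1.95% of all genes), and 0 passed the adjusted threshold. Levels near 0 TPM, as in Cox6b2 and Cox8b, rest on few reads, and the number of reads is unknown.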
